A study of Mus musculus with 384 samples.

Results

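*Cdkn1a* and *Ccndbp1* were 2 of the 69 genes read by targeted RNA sequencing in micropunches of brain tissue from male Balb/c mice. They were taken from the deposited table by name: the first is listed there in capitals as CDKN1A with the transcript NM_007669, the second as Ccndbp1 with NM_010761. *Cdkn1a* was chosen by its inject minus naive difference in samples labelled vDG, so that difference is given below as a description without a test. The sample labels cross a status, MS or Co, with an injection state, inject or naive, and each of the 4 label groups holds 8 mice sampled under 12 region labels: AMY, BNST, PFC, PVN, dCA1, vCA1, CER, dCA3, vCA3, Pit, dDG and vDG.

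All mice share strain and sex, and every label gives an age of postnatal day 9. The study itself describes early handling or limited nesting material in the first days of life, followed by housing with an ovariectomised female or chronic social defeat in adulthood. Its animals were sampled as adults after those manipulations, which the age in the labels does not match. The labels do not say how MS, Co, inject and naive map onto these conditions, if they do, so the groups keep their label names here. No agent is named for the label inject. Of 384 samples, 380 had values, and the 4 without values were mouse 95 (MS inject) and mouse 109 (MS naive) in PVN, mouse 229 (Co naive) in vDG and mouse 243 (Co inject) in BNST.

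Both genes act on the machinery that moves a cell from growth into DNA replication. *Cdkn1a* encodes p21, which binds and inhibits cyclin-dependent kinases and is a classical target of the tumour suppressor p53; it is also known to respond to glucocorticoids in several cell types. *Ccndbp1* encodes a cyclin D binding protein, a helix-loop-helix factor without a basic domain that restrains cyclin D-driven progression. In the brain most neurons have left the cell cycle, and p21 is studied there in connection with neural progenitors, DNA damage and stress.

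In GRCm38, the build used by the submitters (mm10), *Cdkn1a* lies on the plus strand at chr17:29090976-29100727 and *Ccndbp1* on the plus strand at chr2:121008403-121016904. The listed transcript of *Cdkn1a* has 3 exons and starts at 29093769, downstream of the first promoter of the gene, and an unspliced transcript of unknown coding status on the opposite strand (AC167363.2) overlaps the gene. The listed transcript of *Ccndbp1* has 11 exons, and no other annotated gene overlaps it. Which exons the amplified stretches cover was not analysed here. The 240 bases that end 11 bases before each RefSeq start site (GRCm38.p6, plus strand) are printed because they show how differently the start regions of these genes are built; capitals mark matches, on either strand, to the p53 half-site consensus, to a pair of CATG separated by 6 bases, to TATAA and to GGGCGG.
*Cdkn1a*, upstream start site, chr17:29090729-29090968: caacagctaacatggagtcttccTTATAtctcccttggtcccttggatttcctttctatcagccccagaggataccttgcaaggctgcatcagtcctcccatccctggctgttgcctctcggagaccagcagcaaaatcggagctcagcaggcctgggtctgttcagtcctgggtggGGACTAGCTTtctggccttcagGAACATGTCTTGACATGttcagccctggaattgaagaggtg
*Cdkn1a*, start site of the listed transcript, chr17:29093519-29093758: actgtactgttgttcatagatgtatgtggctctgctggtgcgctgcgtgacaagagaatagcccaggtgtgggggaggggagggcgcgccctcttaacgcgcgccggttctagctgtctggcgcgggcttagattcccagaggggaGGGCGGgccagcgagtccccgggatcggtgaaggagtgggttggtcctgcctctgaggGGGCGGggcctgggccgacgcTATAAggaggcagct
*Ccndbp1*, chr2:121008158-121008397: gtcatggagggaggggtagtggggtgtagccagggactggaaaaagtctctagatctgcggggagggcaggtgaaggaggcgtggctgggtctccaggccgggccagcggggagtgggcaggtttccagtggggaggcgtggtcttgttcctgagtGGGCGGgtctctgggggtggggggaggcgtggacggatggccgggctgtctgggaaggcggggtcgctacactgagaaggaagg

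The upstream *Cdkn1a* window held 2 matches to the p53 half-site consensus, GGACTAGCTT and GAACATGTCT. The second of them overlaps the run CATGTCTTGACATG, the spaced pair of CATG, which was searched for after the sequence had been read. Among 32851 windows of the same length, 6.87% held a half-site match and 0.478% the spaced pair. It also held TATAA on the minus strand, 227 bases upstream. The listed *Cdkn1a* start site had TATAA 25 bases and GGGCGG 46 and 104 bases upstream, and the *Ccndbp1* window had 1 GGGCGG; 22.4% and 31.3% of all windows held these words. The glucocorticoid receptor element, searched as GNACA and TGTNC separated by 3 bases, was in 0.374% of all windows and matched none of the 3 printed here. These matches describe letters only.

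Before any result by region, the labels themselves need a caution. *Anxa2* split the 95 samples under the labels Pit, dDG and vDG into a lower range of 70.2 to 298 (64 samples) and an upper range of 1901 to 21258 (31 samples). *Ociad2* split the 96 samples under CER, dCA3 and vCA3 into a lower range of 392 to 843 (32 samples) and an upper range of 1750 to 3780 (64 samples). Counted by mouse, 9 of the 32 mice had no sample in the upper range of *Anxa2*, 6 mice had 2 and 1 mouse had 3. The upper range of *Anxa2* held 16 samples labelled Pit, 8 labelled dDG and 7 labelled vDG, and the lower range of *Ociad2* held 8 labelled CER, 8 labelled dCA3 and 16 labelled vCA3. These label sets therefore hold samples of 2 kinds, in numbers close to those of 1 region per set, and the values go against the labels of some of the samples: region labels may have been exchanged within each set, which was not tested. A level or difference given under any of these 6 labels may for this reason mix regions. The label groups share them almost evenly, with 16 inject and 15 naive samples in the upper range of *Anxa2* and 16 of each in the lower range of *Ociad2*. Of the 7 pituitary markers listed, *Anxa2* and *Tmem176a* were assayed, and of the markers listed for dentate granule cells, cerebellum, CA1 and CA3 none was, so no defining marker of those regions was at hand to place single samples. Results by label use the labels as given, and results averaged over the labels of a mouse are set beside them. Those averages use the mouse numbers as given. Exchanges within a mouse alone would leave 1 sample per mouse in the upper range of *Anxa2*, and the counts by mouse above differ from that. Samples may thus also have been exchanged between mice, which was not tested. In tissue pieces such as these, fewer cells that express a gene and less RNA per cell cannot be told apart.

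*Cdkn1a* was read at low counts. Over all 380 samples its normalised read count had a median of 40.4 (0 to 400.1), resting on a median of 43 reads per library and 22778 reads in all, or 0.0437% of the reads assigned to the 69 genes. It was at 0 in 19 libraries, 8 of 190 labelled inject and 11 of 190 labelled naive, where a floor of 3 reads allows values up to between 2.14 and 27.8 depending on the library. Library totals ran from 12898 to 261007 reads and had nearly the same median in inject (139770) and naive (140180) samples. The zeros came from 16 mice, at most 2 from any of them.

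By region label, the level of *Cdkn1a* was highest in PFC by the mean of log2 values and in AMY by the median, and lowest in dDG by both. The median normalised count was 73.9 (0 to 294) in PFC, 79.8 (0 to 312) in AMY and 26.6 (0 to 59.9) in dDG. On the scale of mean log2(value + 1) the order was PFC (6.09), AMY (5.90), vCA3 (5.46), PVN (5.31), CER (5.16), BNST (5.12), dCA3 (4.94), dCA1 (4.81), vDG (4.75), Pit (4.74), vCA1 (4.60) and dDG (4.39), with SDs over samples between 1.16 in CER and 2.41 in dCA1. None of the 11 pairs of neighbours in this order differed beyond their spread by limma at an adjusted p of 0.1, and the first and the last, picked as the ends of the order, were 1.70 ± 0.43 (SE) apart. Depth differed between labels. At least 100000 reads were reached by 15 libraries in PFC, 16 in AMY, 15 in BNST, 19 in PVN, 20 in dCA1 and 23 in vCA1. In CER, dCA3, vCA3, Pit, dDG and vDG 31 or 32 libraries did. The part of depth in the order of levels was not tested. The study's methods describe library preparation on 4 plates of 3 regions each, for a set of regions with nucleus accumbens where the labels have Pit; if these libraries followed that layout, levels of regions on different plates cannot be told apart from the plates.

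**Figure D1:**
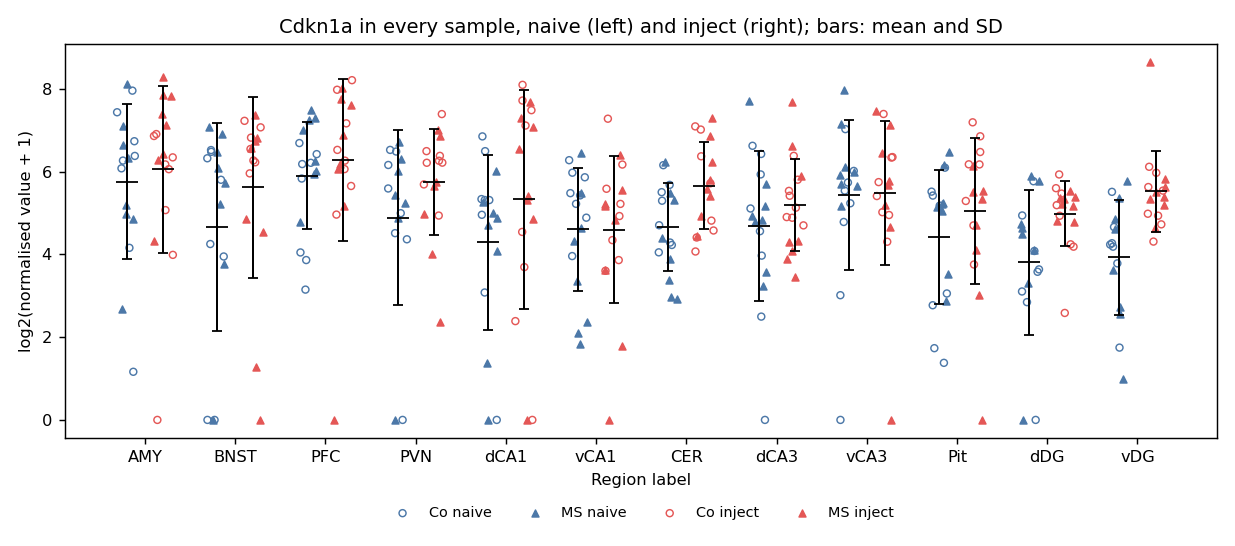
*Cdkn1a* in each of the 380 samples as log2(normalised value + 1), by region label, with naive samples on the left (blue) and inject samples on the right (red) of each label; circles are Co, triangles MS, and bars give the mean and SD. In vDG the inject samples sit between 18.8 and 400.1 on the value scale and the naive samples between 0.974 and 53.8, and in every label the ranges overlap.

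In vDG, the label by which *Cdkn1a* was chosen, its normalised count was between 18.8 and 400.1 (median 42.4) in the 16 inject samples and between 0.974 and 53.8 (median 17.8) in the 15 naive samples. All 16 inject samples lay above the naive median, yet the ranges overlap. The inject minus naive difference was 1.59 ± 0.43 (SE) on the log2(value + 1) scale, 1.22 ± 0.61 within Co and 1.95 ± 0.59 within MS. It was 1.38 without mouse 83, which holds the value of 400.1, and 1.73 ± 0.40 in the 24 samples in the lower range of *Anxa2*. These values chose the gene and carry no test.

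The other 11 labels did not enter that choice. In most of them the mean of log2 values was higher in inject than in naive samples, with overlapping ranges. The difference passed in no single label after adjustment over genes in limma, with unadjusted p under 0.05 in CER and dDG. In CER, inject samples lay between 15.8 and 155 (median 49.3) and naive samples between 6.63 and 74.5 (median 22.5). The ranges overlap, and 13 of 16 inject samples were above the naive median. The difference was 1.01 ± 0.36 (adjusted p = 0.66 from limma over the genes of the label).

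In dDG, inject samples lay between 4.99 and 59.9 (median 35.9) and naive samples between 0 and 58.4 (median 16.1). The ranges cover nearly the same span, but 15 of 16 inject samples were above the naive median. The difference was 1.17 ± 0.47 (adjusted p = 0.65 from limma). BNST and dCA1 had differences of similar size with wider errors, 1.02 ± 0.81 and 1.03 ± 0.84. Both labels held 4 samples at 0, in BNST 3 of them naive and in dCA1 2 of 4. The remaining labels gave 0.83 ± 0.63 in PVN, 0.63 ± 0.55 in Pit, 0.50 ± 0.53 in dCA3, 0.38 ± 0.57 in PFC, 0.30 ± 0.65 in AMY, 0.05 ± 0.60 in vCA3 and -0.0042 ± 0.53 in vCA1. In vCA1 and vCA3 the medians of inject and naive samples were nearly equal, at 32.1 and 32.4 in vCA1 and at 51.4 in both groups of vCA3.

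**Figure D2:**
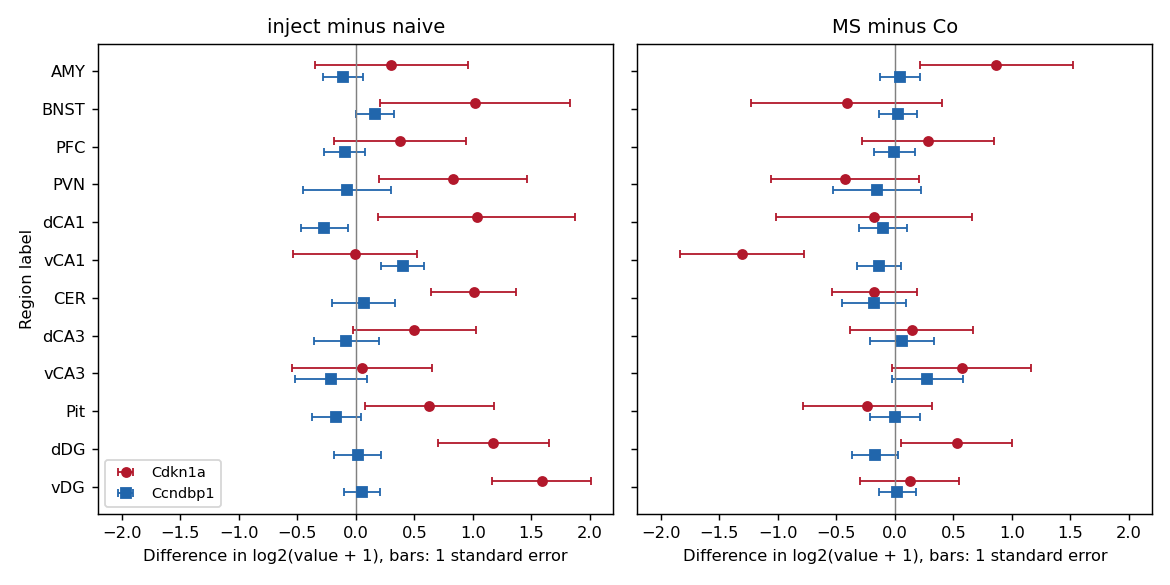
Differences in log2(value + 1) by region label, inject minus naive on the left and MS minus Co on the right, for *Cdkn1a* (red circles) and *Ccndbp1* (blue squares), with bars of 1 standard error. For inject minus naive, *Cdkn1a* lies right of 0 in every label but vCA1, where it is -0.0042, while *Ccndbp1* scatters around 0 and is above it in 5 of 12 labels.

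Counted over labels, *Cdkn1a* was higher in inject than in naive samples in 11 of 12 labels, and in 10 of the 11 labels other than vDG. Of the 67 genes with values in every label, 1.49% were higher in at least 10 of these 11 labels, and *Cdkn1a* was the 1 gene among them. The median gene was higher in 6 of 12 labels. By medians instead of means of logs, *Cdkn1a* was higher in 9 of the 11 labels, and 114 of 174 inject samples (65.5%) lay above the naive median of their label. With the injection labels split by status, the difference was above 0 in 9 of the 11 labels within Co and in 7 of 11 within MS; 2.99% and 25.4% of the 67 genes were above 0 in at least as many labels. Within Co it was widest in BNST (2.42 ± 1.2) and Pit (1.93 ± 0.78) and lowest in AMY (-0.60 ± 0.93), and within MS it was widest in dCA1 (1.61 ± 1.2) and CER (1.49 ± 0.51) and lowest in vCA3 (-0.91 ± 0.84). None of these 22 differences passed in limma, where the smallest adjusted p was 0.21 (CER within MS) and 3 had an unadjusted p under 0.05. Across all genes 0% passed within either status, and unadjusted p under 0.05 came in 3.43% of the tests within Co and 2.38% within MS. The 12 samples of a mouse share that mouse, so labels are not independent replicates of the injection state.

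The spread of the difference over labels was small against its error. An F test of region label by injection in limma gave F = 0.43 for *Cdkn1a* over the 11 labels (adjusted p = 1.00), and 0 of 69 genes passed. A p of this size does not show that the labels share 1 difference, since each label's standard error was between 0.36 and 0.84.

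With the mouse as the unit, the log2 values were centred within each label and averaged over the 11 labels other than vDG. These mouse means lay between -0.60 and 1.07 (median 0.41) in the 16 inject mice and between -1.97 and 0.96 (median -0.34) in the 16 naive mice. The groups overlap, with 15 of 16 inject mice above the naive median and 11 inject against 5 naive mice above 0. Inject minus naive was 0.64 ± 0.21 (SE), which did not pass in limma over the 69 genes (adjusted p = 0.31). A permutation of the injection state among mice within status gave a two-sided p of 0.00601 for this gene alone. That p is not adjusted over genes, beside an unadjusted p of 0.0045 from limma. The same mice gave the vDG values that chose the gene. In this comparison 0% of the 69 genes passed at an adjusted p of 0.1 and 4.35% had an unadjusted p under 0.05. Without the samples in the upper range of *Anxa2* and the lower range of *Ociad2* the difference was 0.62 ± 0.21 (adjusted p = 0.19 from limma). The lowest naive mouse, number 109 at -1.97, took it to 0.51 when left out (adjusted p = 0.19).

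The call on these mouse means depends on how low values and hidden variation are treated. With a pseudocount of 0.1 in place of 1 the difference was 0.72 ± 0.27 (adjusted p = 0.43 from limma). With a pseudocount of 10 in place of 1, which gives less weight to values near 0, the difference was 0.45 ± 0.13 (adjusted p = 0.0863 from limma). With 5 principal components of the libraries taken out it was 0.63 ± 0.19 (adjusted p = 0.0492 from limma). Those components came from what label and label group left over in these same values, and the fit does not count their use. That call is therefore no separate support.

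Within Co the inject minus naive difference of the mouse means was 0.93 ± 0.29 (adjusted p = 0.23 from limma) and within MS 0.34 ± 0.29 (adjusted p = 0.94). In Co, 7 of 8 inject mice and 1 of 8 naive mice had a mean above 0, and in MS 4 of 8 and 4 of 8 did. The difference between these differences was -0.60 ± 0.41 (adjusted p = 1.00 from limma), so the injection difference was not shown to differ between MS and Co.

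**Figure D3:**
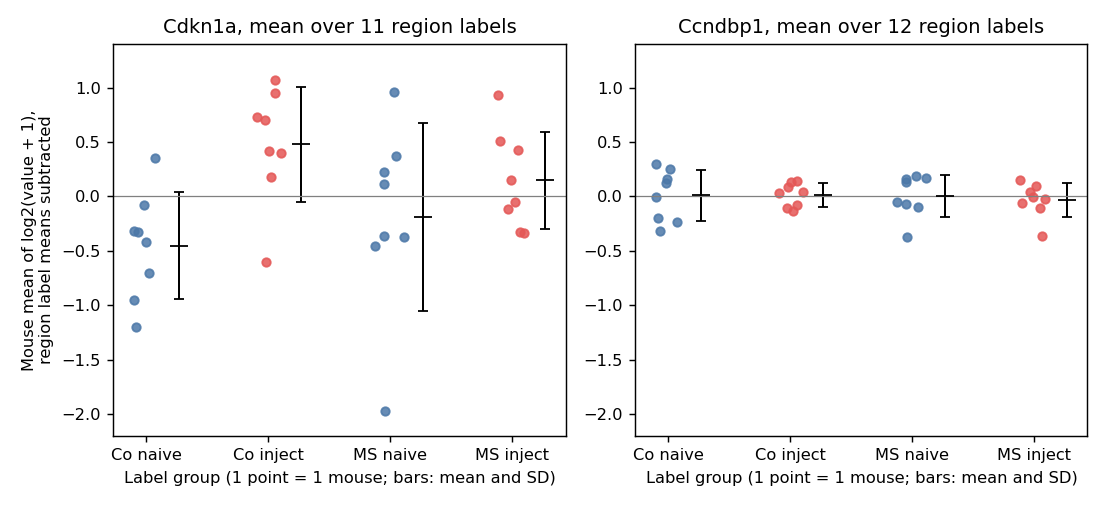
Mean per mouse of log2(value + 1) after subtracting the mean of each region label, for *Cdkn1a* over the 11 labels other than vDG (left) and *Ccndbp1* over 12 labels (right), by label group; each point is 1 mouse, blue naive and red inject, and bars give the mean and SD of 8 mice. *Cdkn1a* means run from -1.97 to 1.07 and *Ccndbp1* means from -0.37 to 0.30.

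Between MS and Co, *Cdkn1a* showed no common direction. It was higher in MS in 6 of 12 labels, and the mouse means over 12 labels differed by -0.02 ± 0.19 (adjusted p = 0.98 from limma). The MS mice lay between -1.81 and 0.90 and the Co mice between -1.15 and 1.05, with medians of -0.05 and -0.02. In vCA1, MS samples lay between 0 and 86.1 (median 21.4) and Co samples between 11.1 and 154 (median 39.1). There 4 of 16 MS samples were above the Co median, and MS minus Co was -1.31 ± 0.53 (adjusted p = 0.86 from limma). In AMY the difference was in the other direction, 0.87 ± 0.65 (adjusted p = 0.91).

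The difference of the injection difference between MS and Co was widest in BNST and Pit. In Pit, the normalised count of *Cdkn1a* had medians of 21.2 (1.60 to 67.2) in Co naive, 71.1 (12.5 to 145) in Co inject, 35.1 (6.30 to 87.8) in MS naive and 32.2 (0 to 68.7) in MS inject samples. The Co inject samples thus had the highest median of the 4 groups, with overlapping ranges, and each group held 4 samples in each range of *Anxa2*. The interaction was -2.61 ± 1.1 (adjusted p = 0.70 from limma). In BNST it was -2.81 ± 1.6 (adjusted p = 0.75 from limma), with medians of 36.4 (0 to 90.6) in Co naive and 92.3 (61.0 to 148) in Co inject samples, against 59.7 (0 to 134) and 61.2 (0 to 163) in the MS groups.

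Over the 35 tests of *Cdkn1a* by label other than the contrast that chose it, covering inject minus naive, MS minus Co and their interaction (in vDG the MS minus Co and interaction tests use the samples behind the choice), 0 passed an adjusted p of 0.1 in limma and 4 had an unadjusted p under 0.05. Across all genes the share past the threshold was 0.121% of 826 tests for inject minus naive, a family that includes the contrast by which *Cdkn1a* was chosen and from which nothing is read here, 0% for MS minus Co and 0% for the interaction; unadjusted p under 0.05 came in 3.75%, 2.66% and 2.3% of them. With 5 principal components as covariates 3 of the 35 passed: inject minus naive in CER (1.01 ± 0.25, adjusted p = 0.0157 from limma), MS minus Co in vCA1 (-1.31 ± 0.40, adjusted p = 0.0725) and the interaction in Pit (-2.61 ± 0.52, adjusted p = 0.00113). Under that setting 3.87% of all 2478 tests passed. The components were taken from what label and label group left over in these same values. The differences therefore stayed the same while their errors fell, and these calls are no separate support.

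*Ccndbp1* was read far more deeply. Its normalised count had a median of 406 (16.2 to 1742) over 380 samples, from a median of 398 reads per library and 188553 reads in all, 0.361% of the reads, and it was never at 0. Its order over labels, by mean log2(value + 1), was vCA1 (9.10), vCA3 (9.08), dCA1 (8.89), BNST (8.79), PFC (8.69), PVN (8.62), CER (8.56), dCA3 (8.54), AMY (8.49), vDG (8.43), Pit (8.33) and dDG (8.29). The medians ran from 569 (168 to 1742) in vCA3 to 321 (167 to 1068) in dCA3, which puts the labels in another order than the means of logs. No pair of neighbours passed at an adjusted p of 0.1 in limma, and the ends of the order, vCA1 and dDG, were 0.80 ± 0.16 (SE) apart. With libraries rescaled to the same total, vCA3 came first and Pit last for *Ccndbp1*, while PFC and dDG stayed at the ends for *Cdkn1a*.

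**Figure D4:**
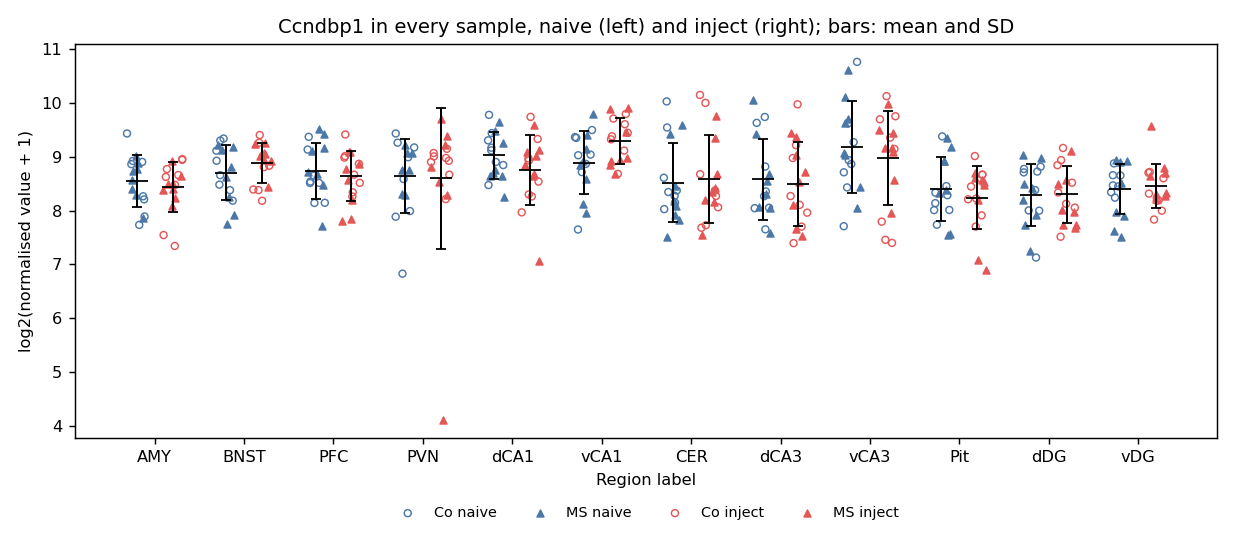
*Ccndbp1* in each of the 380 samples as log2(normalised value + 1), by region label, naive on the left (blue) and inject on the right (red), circles Co and triangles MS, with bars for mean and SD. The groups overlap in every label, and the lowest point, 16.2 on the value scale, is a PVN sample labelled MS inject.

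For *Ccndbp1* no difference between inject and naive samples was detectable. The mouse means over 12 labels lay between -0.36 and 0.15 (median 0.01) in inject mice and between -0.37 and 0.30 (median 0.06) in naive mice, and 5 of 16 inject mice were above the naive median. The difference was -0.02 ± 0.06 (SE; adjusted p = 0.98 from limma), with a permutation p of 0.773. Inject was higher in 5 of 12 labels by the means of logs and in 8 of 12 by medians.

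By label, the widest injection difference of *Ccndbp1* was in vCA1. There inject samples lay between 408 and 966 (median 654) and naive samples between 199.8 and 895 (median 502), with 11 of 16 inject samples above the naive median. The difference was 0.40 ± 0.19 (adjusted p = 0.82 from limma). The others ran from -0.27 ± 0.20 in dCA1 to 0.17 ± 0.16 in BNST. The F test of label by injection gave F = 0.63 (adjusted p = 1.00 from limma).

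Between MS and Co no difference of *Ccndbp1* passed either. MS minus Co of the *Ccndbp1* mouse means was -0.03 ± 0.06 (adjusted p = 0.98 from limma), with MS mice between -0.37 and 0.18 and Co mice between -0.32 and 0.30. MS was higher in 6 of 12 labels, from -0.18 ± 0.27 in CER to 0.28 ± 0.31 in vCA3. The interaction was widest in PVN, at -0.84 ± 0.75 (adjusted p = 0.96 from limma), where 1 MS inject sample had the value of 16.2, and the smallest adjusted p of any interaction was 0.64, in vDG, at 0.53 ± 0.31. Of 36 tests of *Ccndbp1* by label, 0 passed an adjusted p of 0.1 in limma and 1 had an unadjusted p under 0.05. With 5 principal components, 2 passed: MS minus Co in vCA3 (adjusted p = 0.0639) and the interaction in vDG (adjusted p = 0.077), beside the 3.87% of all tests given above.

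Both genes differed between the kinds of sample marked by *Anxa2* and *Ociad2*. In the 31 samples in the upper range of *Anxa2*, *Cdkn1a* had a median of 44.7 (7.30 to 400.1), against 24.0 (0 to 87.7) in the 64 in the lower range. The upper minus lower difference was 1.5 ± 0.28 for *Cdkn1a* (adjusted p = 1.3e-06 from limma) and 0.63 ± 0.10 for *Ccndbp1* (adjusted p = 3.2e-08), in a fit with label and label group, in which 58% of the 69 genes passed as higher. This fit counts samples of 1 mouse as separate replicates, so its p may be too small. The vDG samples by which *Cdkn1a* was chosen are among them. For *Ccndbp1* the medians were 437 (240 to 758) and 300.1 (118 to 490).

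In the 32 samples in the lower range of *Ociad2*, *Cdkn1a* had a median of 80.2 (6.63 to 249), against 27.9 (0 to 85.8) in the 64 in the upper range. *Ccndbp1* had medians of 792 (490 to 1742) and 299 (167 to 699). The lower minus upper difference was 1.58 ± 0.28 for *Cdkn1a* (adjusted p = 9.6e-07 from limma) and 1.37 ± 0.11 for *Ccndbp1* (adjusted p = 6.4e-21), where 37.7% of genes passed as higher. By size these ranked 5th and 10th of 69 genes, and the differences between the ranges of *Anxa2* ranked 16th and 36th. Here too samples of 1 mouse count as separate replicates. Within the label CER the 2 kinds of sample did not overlap in *Ccndbp1*, with 652 to 1137 in 8 samples and 182 to 411 in 24.

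**Figure D5:**
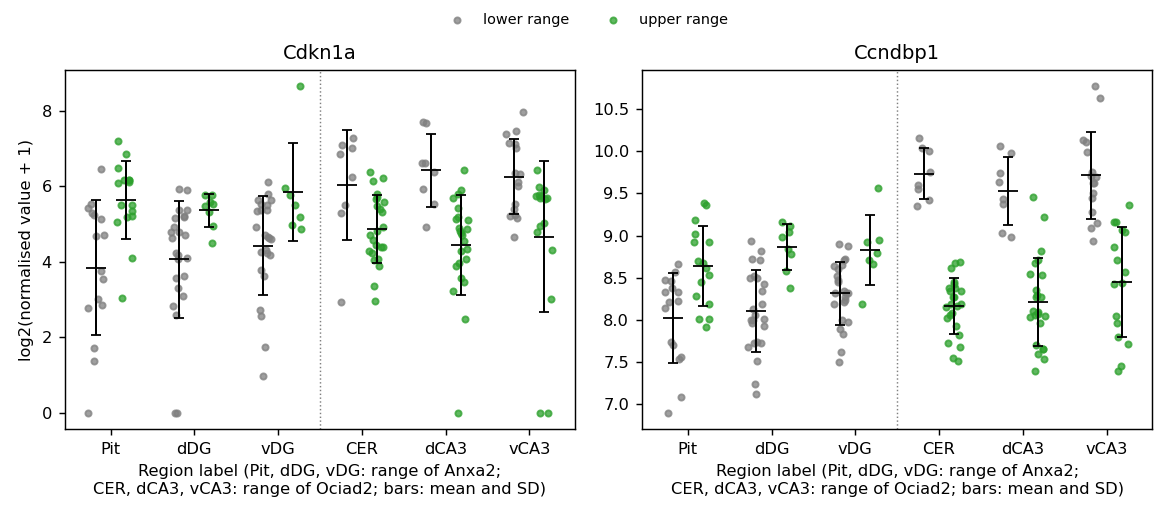
log2(normalised value + 1) of *Cdkn1a* (left) and *Ccndbp1* (right) in the samples labelled Pit, dDG and vDG, split by the range of *Anxa2*, and in those labelled CER, dCA3 and vCA3, split by the range of *Ociad2*; grey points are the lower and green points the upper range, and bars give the mean and SD. Both genes sit higher in the upper range of *Anxa2* and in the lower range of *Ociad2* under each of the 6 labels.

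The injection difference of *Cdkn1a* was above 0 in each kind of sample. It was 0.56 ± 0.34 in the upper and 1.38 ± 0.34 in the lower range of *Anxa2*, both of which include vDG samples and carry no test. In the lower and upper range of *Ociad2* it was 0.56 ± 0.39 and 0.50 ± 0.34 (adjusted p = 0.83 and 1.00 from limma). For *Ccndbp1*, MS minus Co was 0.33 ± 0.14 in the upper and -0.24 ± 0.11 in the lower range of *Anxa2* (adjusted p = 0.55 and 0.85 from limma), and the difference between these was not tested. All fits within ranges count samples of 1 mouse as separate replicates, with 64 samples from at most 32 mice in the larger range of each gene.

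Single samples were set against the rest of their group. Of 48 groups of 7 or 8 samples, 6 (12.5%) held 1 *Cdkn1a* value beyond Dixon's 95% criterion and 3 (6.25%) a *Ccndbp1* value, all 9 of them high; for normally distributed values the criterion is passed in about 1 of 20 groups, a share that the *Ccndbp1* count is near, and the share over other genes was not computed. The farthest was mouse 83 in vDG (MS inject), with 400.1 for *Cdkn1a* from 341 reads, against 24.0 to 55.0 in the other 7 samples. *Ccndbp1* was also extreme in that sample, at 758 against 297 to 442, and the sample is in the upper range of *Anxa2*. Of the 9 extreme values, 7 were in samples in the upper range of *Anxa2* or the lower range of *Ociad2*. On the log2 scale 9 groups of *Cdkn1a* had such a sample, 8 of them low, and each of these 8 was a library at 0.

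The 2 genes varied together only weakly. After the label means were subtracted, Pearson's r between them was 0.24 over 380 samples, and over the 12 label means it was 0.15; the samples share libraries and mice, and the size factor of a library enters both values. Among the 64 other genes with at least 2000 reads, *Cdkn1a* was most like *Lcn2* (r = 0.30), *Pds5a* (0.29) and *Ccndbp1* (0.24) over samples, and *Ccndbp1* most like *Nedd4* (0.58), *Polr2i* (0.53) and *Pds5a* (0.53). Over the 12 label means the closest were *Hist1h2al* (0.70), *Spag9* (0.63) and *Slco3a1* (0.61) for *Cdkn1a*, and *Hsp90aa1* (0.72), *Atp5f1* (0.68) and *Slc6a15* (0.68) for *Ccndbp1*. The genes nearest to each member thus changed with the points compared.

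A list of 12 assayed genes of cell cycle and growth control, which holds the 2 genes, was examined on mouse means. Of the 10 others, among them the kinase *Akt1*, beta-catenin (*Ctnnb1*), the cohesin regulator *Pds5a* and the DNA repair nuclease *Fan1*, 0 passed in limma for inject minus naive or for MS minus Co on mouse means over 12 labels, and none had an unadjusted p under 0.05. The share of all 69 genes past the threshold was 1.45% for inject minus naive, a comparison that includes the vDG values behind the choice of *Cdkn1a* and from which nothing is read here, and 0% for MS minus Co; unadjusted p under 0.05 came in 5.8% and 1.45%. Their inject minus naive differences ran from -0.15 to 0.12, 2 of 10 above 0, with a median of -0.03, beside a median of -0.0081 over all 69 genes. For MS minus Co, 4 of 10 were above 0 and the median was -0.01.

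Of 12 listed genes of glucocorticoid signalling and stress, 3 were assayed: the receptor *Nr3c1*, its co-chaperone *Fkbp5* and the chaperone *Hsp90aa1*. None of the 3 passed in either comparison. Their inject minus naive differences were 0.0065 ± 0.06, 0.54 ± 0.19 (adjusted p = 0.22 from limma) and 0.07 ± 0.05. *Fkbp5* thus had the widest difference of the 3, and its unadjusted p was under 0.05.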

How the data were processed

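RNA from frozen micropunches was amplified with TruSeq Targeted RNA assays and sequenced. The authors removed reads with phred scores under 20 or under 25 bp (PRINSEQ), aligned to the assay manifest (BWA) and normalised with DESeq2; the deposited values are normalised signal, that is, reads divided by a size factor per library. All 26220 values were whole multiples of 1 step per library (tolerance 0.001), taken as 1 read. Differences were fitted with limma 3.58.1 (R 4.3.3) on log2(value + 1), which understates changes of low genes, per region label and on mouse means, with Benjamini-Hochberg adjustment over genes and the study's threshold of 0.1. Single values on mouse means were also tested by 100000 permutations. Alternatives covered the pseudocount, a filter on low values, rescaled libraries and each mouse left out. Fits were tested on simulated data. The study's 5 surrogate variables were replaced by principal components as an alternative. Samples with the same mouse number correlated no more than others (median r 0.0039 and -0.0023), so the block is an alternative. Replicates are separate mice by the mouse numbers as given. The genes and both lists were chosen with earlier results of these data known; the named genes are the 2 members, the 3 most like each, and listed genes that passed, others being described after their values were seen.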

Additional observations from a re-analysis of the deposited data

Results flagged for a closer look

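In 9 groups 1 sample lay beyond Dixon's 95% criterion on the value scale, which chance gives in about 1 of 20 groups of normally distributed values and at a rate not measured here for skewed values; 96 groups of samples were looked at over both genes. For *Cdkn1a* these were 166 in PVN Co inject (mouse 235; the other 7 samples between 29.6 and 89.0), 203 in dCA3 MS inject (mouse 95; others 10.01 to 97.1), 209 in dCA3 MS naive (mouse 89; others 8.33 to 50.8), 154 in vCA1 Co inject (mouse 233; others 11.1 to 70.9), 167 in vCA3 Co inject (mouse 243; others 18.7 to 80.5) and 400.1 in vDG MS inject (mouse 83; others 24.0 to 55.0). For *Ccndbp1* they were 666 in Pit Co naive (mouse 239; others 213 to 350.4), 1742 in vCA3 Co naive (mouse 251; others 209 to 789) and 758 in vDG MS inject (mouse 83; others 297 to 442). The *Cdkn1a* values rested on 124 to 356 reads. The samples in dCA3, vCA3, Pit and vDG were in the lower range of *Ociad2* or the upper range of *Anxa2*; 1 to 3 of the other samples of the same group shared that range. The part of those ranges in each single value was not tested.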

How the results depend on the processing

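*Cdkn1a* inject minus naive in vDG, the value that chose the gene, ran from 1.07 to 1.73 over 39 alternatives, from which nothing is read. On mouse means over the 11 labels other than vDG it was above 0 in 53 alternatives (0.45 to 0.72). They include 32 fits that leave out 1 mouse, fits on fewer labels and 1 fit that adds vDG (0.71). Some settings cannot change the difference, so the alternatives are not separate checks of its sign. The difference passed in limma with a pseudocount of 10 (0.45), with 5 principal components (0.63), and without mouse 89 (adjusted p = 0.0756) or mouse 245 (adjusted p = 0.0875). The permutation test (p = 0.00601) is not adjusted over genes, and the unadjusted p from limma was 0.0045, so it is not a further method that passed. Leaving out each mouse gave 0.51 to 0.72, and 1.38 to 1.73 in vDG. Among the other labels 9 to 11 of 11 had inject above naive. Differences near 0 changed sign: *Cdkn1a* MS minus Co was 0.016 with a pseudocount of 10, 0.035 in libraries of at least 100000 reads, and 0.0091, 0.023 and 0.097 without BNST, PVN and vCA1 (-0.10 to 0.092 leaving out mice); *Ccndbp1* inject minus naive was 0.0093 over the 6 labels without separate ranges, 0.0069 in libraries of at least 100000 reads and 0.0049 without dCA1 (-0.045 to 0.0053 leaving out mice); *Ccndbp1* MS minus Co was 0.011 in libraries of at least 100000 reads (-0.050 to 0.00033 leaving out mice). With 5 principal components 3 *Cdkn1a* and 2 *Ccndbp1* tests by label passed, where none did without them, as did 3.87% of all tests. The components were taken from what label and label group left over in these same values. They left these differences as they were and lowered their standard errors, for *Cdkn1a* inject minus naive in CER from 0.36 to 0.25. These calls are therefore no separate support. Rescaling libraries to the same total let 1 pair of *Ccndbp1* neighbours differ (vCA1 and dCA1, 0.37 ± 0.16, adjusted p = 0.0638 from limma). On the log2 scale 6 *Ccndbp1* groups held an extreme sample. With the mouse as replicate block, the F values over labels were 0.427 and 0.628 and no call changed. edgeR and DESeq2 were not run, because the deposited values are normalised and a table of 69 genes holds too few low values to check the recovered reads. The settings by depth, by label left out, by direction count and on the log2 scale of extremes were chosen after seeing the data. *Cdkn1a* is limited by its low counts, and 30 libraries held at most 3 reads of it. The libraries in which it was at 0 held between 12898 and 176653 reads, beside a median of 139846 over all libraries.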
